A study of Mus musculus with 6 samples.

Results

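Forkhead (Fox) proteins are transcription factors that grip DNA through a winged-helix domain, whose recognition helix lies in the major groove and reads the bases. FoxA proteins open closed chromatin in organs that arise from endoderm. FoxO proteins carry insulin and PI3K-Akt signals to genes of growth arrest, stress resistance and cell death, and are pushed out of the nucleus when Akt phosphorylates them. FoxP proteins mostly repress, FoxF and FoxL1 act in the mesenchyme beneath epithelia, and FoxJ1, FoxI1 and FoxP3 specify multiciliated cells, ionocytes and regulatory T cells. The genes described here are the rows of the deposited mouse count table whose symbol is Fox followed by a letter from a to s and a number, with 3 symbols left out by the rule. This gave 41 genes of 24091. The rule used names only, and no measured value, but the members were chosen with earlier results of these data known. Of the 41, 22 had enough counts in the libraries to be tested, 19 did not, and 8 of those 19 had 0 counts in every library.

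RNA was sequenced from mouse prostate in 3 groups of 2 libraries. The 12Q tumors came from males with a humanised allele that encodes 12 glutamines in a polyglutamine tract, and the 48Q tumors from males with 48 glutamines there. Both tumor genotypes also carried Ctnnb1(Ex3)L/wt, which is 1 β-catenin allele with a conditional exon 3, and the transgene PBCre-4, in which a probasin promoter expresses Cre recombinase in prostate epithelium. The WT libraries were normal prostate of wild-type mice, which had none of these alleles. A comparison of a tumor group with WT therefore covers the tract allele, the β-catenin allele, Cre and the tumor state together, which cannot be told apart. The labels give neither ages nor whether replicates were separate animals, so each p-value speaks only of the spread of these libraries, and that spread may be technical. Library totals ranged from 26416181 to 28559546 counts. Levels are CPM, counts relative to the library total after scaling by the trimmed mean of M-values, and 3 counts in a library corresponded to 0.0856 to 0.156 CPM.

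Several measures of the libraries stood apart between the groups. A single transcript, 9530053A07Rik, took 17.4% and 22.8% of the WT counts, against 0.0580% to 2.99% in the tumors. With library totals in place of the scaling, the median log2 difference over all tested genes moved to 0.48 for 12Q against WT, to 0.71 for 48Q against WT and to -0.19 between the tumors. Summed levels of 10 smooth muscle genes were 128 and 127 CPM in 12Q, 1065 and 413 CPM in 48Q, and 2790 and 7321 CPM in WT. For 8 genes of prostate epithelium the sums were 5421 to 6009 CPM in 12Q, 5256 to 6995 CPM in 48Q and 20998 to 35864 CPM in WT. None of the 8 was at 0 in a group. Their median log2 difference from WT was -0.33 in 12Q and -0.99 in 48Q, so the sums do not stand for each gene. The 10 housekeeping genes summed to 3747 to 4348 CPM in 12Q and to 2005 to 2190 CPM in the other libraries. Their median log2 difference was 0.34 in 12Q and 0.02 in 48Q against WT, and 0.61 between the tumors. These sums do not stand for each gene either. The part of these differences in the results that follow was not tested, and in bulk samples fewer cells of a type and less RNA per cell cannot be told apart.

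Of the 22, 5 passed the threshold in at least 1 comparison (an adjusted p under 0.05 by edgeR's quasi-likelihood test, adjusted over all 15050 genes tested). The stretches below, from 4 of the 5, code for 8 residues of the recognition helix and are shown because this is the part by which family members read DNA; capitals mark the bases that differ from Foxa2.
Foxa2: aactccatccgccactctctctcc
Foxk1: aactcTatccgAcacAACctctcT
Foxo3: aactccatccgGcacAACctGtcc
Foxp4: aaTGccGtGcgccacAACctcAGc
They were read from GENCODE M21 transcripts (GRCm38). Foxa2's lies in exon 2 of 2 at chr2:148044258-148044281 on the minus strand, and Foxk1's in exon 5 of 9 at chr5:142451439-142451462 on the plus strand. Foxo3's is in exon 3 of 4 at chr10:42197878-42197901, minus strand, and Foxp4's in exon 14 of 17 at chr17:47871328-47871351, minus strand. Compared with Foxa2, Foxk1 differed at 6 bases, Foxo3 at 5 and Foxp4 at 9 of the 24. In residues, Foxk1 and Foxo3 differed from Foxa2 at 1 of 8, and Foxp4 at 3 of 8. A single match to the helix was found in 38 of the 41 members, all 22 tested ones included, and 22 of the 38 differed from Foxa2 at exactly 1 residue.

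In 12Q tumors against WT, 4 of the 22 tested members rose (Foxa2, Foxk1, Foxo3 and Foxp4) and 1 fell (Foxp2). That is 18.2% higher and 4.55% lower, where 11.2% of all tested genes were called higher and 11.2% lower. In 48Q tumors against WT, Foxa2 rose and no member fell, which is 4.55% higher, where 3.95% of all genes were called higher and 1.23% lower. Between the tumors, Foxp2 was lower in 12Q than in 48Q and no member was higher, beside 1.01% of all genes higher and 3.16% lower. At an unadjusted p under 0.05, edgeR had 7 members higher and 3 lower in 12Q, 5 higher and 2 lower in 48Q, and 2 higher and 2 lower between the tumors. DESeq2 called 1 member lower in 48Q and 2 higher in 12Q than in 48Q, where edgeR had 0. The median log2 difference of the 22 was 0.23 in 12Q and 0.40 in 48Q against WT, and -0.09 between the tumors, beside -0.01, 0.02 and 0.00 over all genes. Both tumor comparisons share the WT libraries, so their values are not independent. With 2 libraries against 2, the smallest 2-sided permutation p is 0.333. Groups said below not to overlap are therefore only described by this, and the share of all genes without overlap was not counted.

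**Figure D1:**
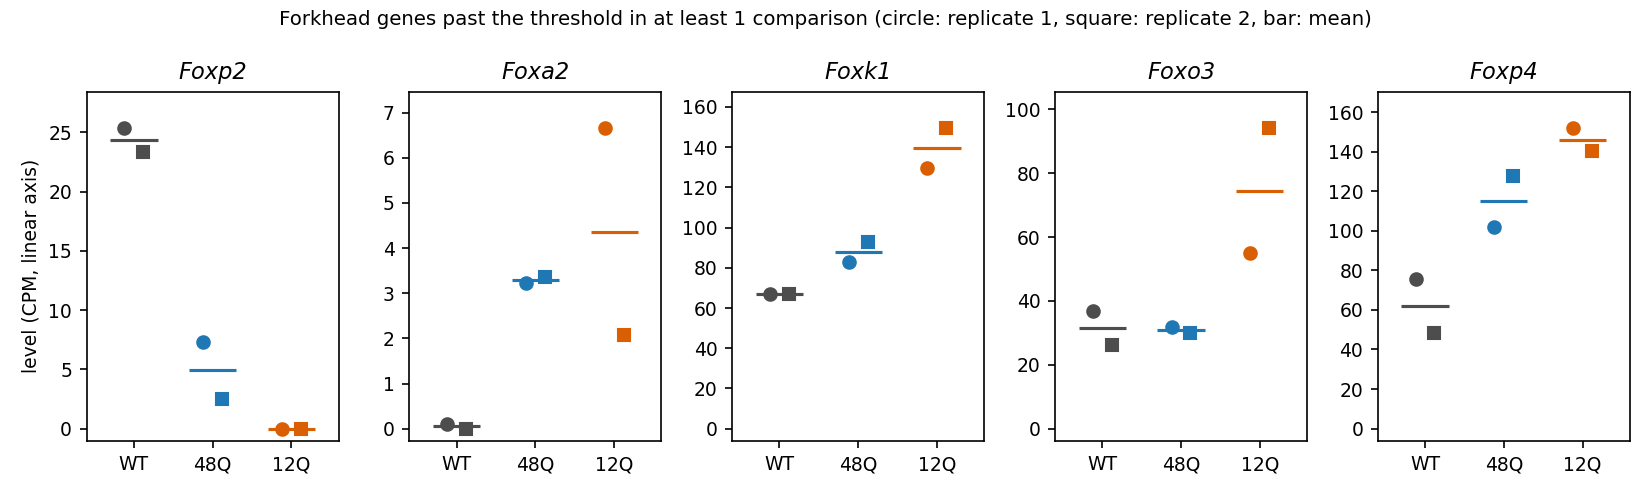
Levels in CPM (linear axes from 0) of the 5 forkhead genes past the threshold in at least 1 comparison, by group; circles are replicate 1, squares replicate 2 and bars the mean of the 2 libraries. Foxp2 is at 0 in both 12Q libraries and above 23 CPM in both WT libraries, and Foxa2 is near 0 in WT and above 2 CPM in all 4 tumor libraries.

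The FoxP genes code for repressors that act as dimers through a leucine zipper. Foxp2 (chr6:14901349-15441977, plus strand), known for its role in the circuits of vocal learning, had no read in either 12Q library. It stood at 7.35 and 2.48 CPM in 48Q and at 25.4 and 23.3 CPM in WT, which were 486 and 527 counts. The 3 groups did not overlap, with WT highest. A count of 0 allows up to 0.111 and 0.0928 CPM in the 2 12Q libraries. Against the mean of these floors, Foxp2 was at least 239-fold lower in 12Q than in WT (adjusted p = 0.00497) and at least 48.2-fold lower than in 48Q (adjusted p = 0.0246). The first call held in 12 of 12 alternatives. The second was lost without 12Q replicate 1 (adjusted p = 0.0650) or without 12Q replicate 2 (adjusted p = 0.0730; range over the 12 alternatives 7.67e-08 to 0.0730), and the bound was 24.3-fold without 48Q replicate 1. For 48Q against WT the log2 difference was -2.31 (SE 0.60, adjusted p = 0.0923), which does not pass by edgeR but does by DESeq2 (adjusted p = 0.00338; range over the alternatives 0.00338 to 0.374), and the 48Q libraries differed 2.96-fold from each other.

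Lists of other cell types were read beside Foxp2, and not all of them kept its order of the groups. All 10 smooth muscle genes fell in 12Q against WT, 3 fell in 48Q, and 5 were lower in 12Q than in 48Q, among them Des (log2 -4.73, adjusted p = 0.0246), the muscle intermediate filament desmin. Of 12 neuroendocrine genes, 4 were tested; 2 of these fell in 12Q against WT, Sox2 (log2 -6.32, adjusted p = 0.0104) and the adhesion molecule Ncam1 (log2 -3.54, adjusted p = 0.0238), and 1 was lower in 12Q than in 48Q. The summed level of the 12 was 2.33 to 3.78 CPM in 12Q, 17.6 to 24.1 CPM in 48Q and 7.88 to 26.4 CPM in WT. Smooth muscle sums kept the order of Foxp2 (WT, then 48Q, then 12Q) in every library, and the neuroendocrine sums did not. Of the 8 prostate epithelium genes, Pbsn was lower in 12Q than in WT (log2 -12.35, adjusted p = 0.00310). Pbsn was also lower in 12Q than in 48Q (log2 -9.51, adjusted p = 0.0165). The other 7 did not pass in these comparisons, and the sums of the 8 overlapped between the tumors. The part of any of these cell types in the Foxp2 result was not tested.

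Foxp4 (chr17:47867133-47924632, minus strand), which acts in the developing lung and gut epithelium, had the reverse order. Its levels were 152 and 140 CPM in 12Q, 102 and 128 CPM in 48Q, and 75.5 and 48.2 CPM in WT. The groups did not overlap, with 12Q highest and WT lowest. Foxp4 rose 2.36-fold in 12Q (log2 1.24, SE 0.29, adjusted p = 0.0289), while its log2 difference was 0.89 in 48Q (adjusted p = 0.119) and 0.35 between the tumors (adjusted p = 0.458). The 12Q call was lost when only the 2 groups were fitted and in each fit without 1 library except WT replicate 1, with adjusted p from 0.0637 to 0.0698. Over the 12 alternatives it ranged from 0.00281 to 0.0698.

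Foxp1, a repressor that acts in B cell and lung development, was at 79.7 and 50.4 CPM in 12Q, 92.9 and 81.5 CPM in 48Q and 70.3 and 79.2 CPM in WT. None of its 3 differences passed (adjusted p 0.363 to 0.653). Per kilobase of the gene length given in the table, Foxp4 made up 81.8% and 86.7% of the summed FoxP level in 12Q, 70.1% and 77.8% in 48Q, compared with 63.6% and 51.2% in WT. Foxp2 held 0% in 12Q, 2.66% and 0.797% in 48Q, compared with 11.3% and 13.05% in WT. Foxp3 stayed at or under 0.304% in every library, so that WT prostate held 3 FoxP genes above that share and the 12Q tumors 2. The shares of 1 family sum to a whole and are not independent of each other.

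Foxa2 (chr2:148042877-148046969, minus strand), the pioneer factor of foregut endoderm that is also known from neuroendocrine prostate tumors, had the largest ratio to WT among the called members. Its counts were 180 and 67 for 12Q, 107 and 118 for 48Q, but 2 and 0 for WT. In CPM these were 6.66 and 2.07, then 3.22 and 3.37, then 0.104 and 0. All 4 tumor libraries lay above both WT libraries, and the tumor groups overlapped. The ratio to WT was 87.0 in 12Q (95% counting interval 23.8 to 722, adjusted p = 0.0161) and 68.9 in 48Q (18.8 to 572, adjusted p = 0.0446). The exact binomial intervals cover counting error only and are wide because WT held 2 counts in all. The 12Q call held in 12 of 12 alternatives. The 48Q call was lost without 48Q replicate 1 (adjusted p = 0.132), 48Q replicate 2 (0.163), WT replicate 1 (0.121) or WT replicate 2 (0.0783), and over the 12 alternatives the adjusted p ranged from 8.26e-05 to 0.163. Without WT replicate 1, where WT has no count left, Foxa2 was at least 32.9-fold higher in 12Q and at least 24.8-fold higher in 48Q. The ratio without WT replicate 2 was 39.9 and 31.6, and without 12Q replicate 1 it was 43.3 in 12Q and without 12Q replicate 2 it was 139. Between the tumors the log2 difference was 0.40 (SE 0.81, adjusted p = 0.775). Of the neuroendocrine genes, Scg3, Nkx2-2 and Calca were at 0 in 12Q. By edgeR none of the 4 tested ones rose in a tumor group, but 1 was higher in 12Q and 1 in 48Q at an unadjusted p under 0.05, and DESeq2 called 1 higher in 12Q. Their part in the Foxa2 result was not tested.

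Of the promoter windows in the RefSeq table (GRCm38.p6, 250 bases before to 50 after a start), 31 belonged to 26 members. Only 13 of the 22 tested members had a window. Foxp2 and Foxk1, which passed the threshold, had none and were not searched. Because β-catenin works on DNA through TCF/LEF factors, the windows were searched on both strands for the TCF/LEF letters CTTTGAT, and for the forkhead letters TGTTTAC. The TCF/LEF letters were in 1 of the 31 windows (3.23%), beside 3.73% of all 32851 windows, and the forkhead letters in 0, beside 3.65%. The match belonged to the most downstream start of Foxa2 and began 15 bases into the transcript, in an exon of a processed transcript and an intron of the coding ones. It is shown because Foxa2 is the member that rose in both tumor groups, with the match in capitals, at chr2:148045432-148045461 on the minus strand.
Foxa2: acaggcaaagaATCAAAGaccagtggacaa
A match is a description of the letters and not a shown site, and the other windows of Foxa2 held none. The member windows had a median GC content of 63%, against 52.67% for all windows.

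The 2 FoxK genes, nuclear factors that compete with FoxO for sites and repress autophagy genes in fed cells, had different orders of the groups. Foxk1 (chr5:142401497-142462015, plus strand) was at 130 and 150 CPM in 12Q, 83.1 and 92.8 CPM in 48Q and 66.9 CPM in both WT libraries. It rose 2.09-fold in 12Q (log2 1.06, SE 0.21, adjusted p = 0.0183). Its log2 difference was 0.40 in 48Q (adjusted p = 0.282) and 0.67 between the tumors (adjusted p = 0.111), and the 3 groups did not overlap. The 12Q call was lost when only the 2 groups were fitted (adjusted p = 0.0659) and without 48Q replicate 1 (0.0728) or 48Q replicate 2 (0.0721), in a range of 0.000302 to 0.0728 over 12 alternatives. Leaving out a 48Q library changes neither group of this comparison and leaves fewer degrees of freedom for the spread.

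Foxk2, its paralog, was at 75.7 and 78.9 CPM in 12Q, 78.5 and 83.6 CPM in 48Q, and 197 and 109 CPM in WT. All tumor libraries lay below both WT libraries, but the log2 differences of -0.99 in 12Q (adjusted p = 0.0655) and -0.92 in 48Q (adjusted p = 0.134) did not pass. DESeq2 called Foxk2 lower in 12Q (adjusted p range over the alternatives 0.0231 to 0.228). The level of Foxk1 per kilobase divided by that of Foxk2 was 1.23 and 1.36 in 12Q, 0.759 and 0.796 in 48Q, against 0.243 and 0.438 in WT. Neither tumor group overlapped the other or WT in this ratio, which no scaling of a library can change. Per kilobase, Foxk1 was thus the more abundant of the pair in 12Q only among the 3 groups, and Foxk2 in the other 2. Without division by length, Foxk1 was also above Foxk2 in both 48Q libraries, at 83.1 against 78.5 CPM and 92.8 against 83.6 CPM. The order in 48Q therefore rests on the deposited gene lengths. The ratio was not tested.

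FoxO3, which drives genes of cell death and autophagy when Akt is low, was the FoxO member past the threshold. Foxo3 (chr10:42185786-42276742, minus strand) was at 54.9 and 94.1 CPM in 12Q, 32.0 and 30.1 CPM in 48Q and 36.9 and 26.2 CPM in WT. Both 12Q libraries were above the other 4, and the 48Q values lay within the WT range. Foxo3 rose 2.36-fold in 12Q (log2 1.24, SE 0.33, adjusted p = 0.0430), with log2 differences of -0.02 in 48Q (SE 0.33, adjusted p = 0.970) and 1.26 between the tumors (SE 0.33, adjusted p = 0.0813). This was the least firm of the calls: it was lost in 7 of 12 alternatives, and its adjusted p ranged from 0.0114 to 0.139 over the 12. Among the 7 were the fit of only the 2 groups (0.0896) and the fits without 12Q replicate 2 (0.126), 48Q replicate 1 (0.0914), 48Q replicate 2 (0.0915), WT replicate 1 (0.0687) or WT replicate 2 (0.139).

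Foxo1 and Foxo4, which share most targets with Foxo3, did not pass in any comparison. Foxo1 was at 54.4 and 38.3 CPM in 12Q, 38.6 and 33.7 CPM in 48Q and 38.1 and 44.6 CPM in WT. Foxo4 was at 59.6 and 45.5 CPM in 12Q, 52.8 and 56.8 CPM in 48Q and 42.0 and 43.4 CPM in WT. Foxo6, a brain form, had 3 to 14 counts in a library. Per kilobase, Foxo3 took 37.0% and 57.4% of the FoxO sum in 12Q, 29.3% and 27.9% in 48Q, beside 35.9% and 26.8% in WT, so that 12Q replicate 1 lay close to WT replicate 1 in this share. Foxo4 held the largest share in every library except 12Q replicate 2.

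FoxO activity is set mainly by phosphorylation, which these counts do not see, so the genes around FoxO were counted as well. Of 22 FoxO target genes, 4 rose and 0 fell in 12Q against WT, with a median log2 difference of -0.01, beside -0.01 for all genes. By edgeR 4 more were lower at an unadjusted p under 0.05, and DESeq2 called 3 lower. Among the genes that rose were Bcl6, a repressor of lymphocyte fate genes (log2 1.99, SE 0.44, adjusted p = 0.0257), Gadd45b, a stress response gene (log2 1.95, adjusted p = 0.0342), and Bcl2l11, which codes for the cell death protein Bim (log2 1.25, adjusted p = 0.0451). In 48Q only Bcl6 of the list passed (log2 2.52, adjusted p = 0.0363), with a median of 0.24. Between the tumors edgeR called 0 of the 22, with 2 higher and 2 lower at an unadjusted p under 0.05, and DESeq2 called 1, lower in 12Q. Of 17 regulators of FoxO, 16 were tested, and 3 fell in 12Q. None rose by edgeR (2 at an unadjusted p under 0.05, and 1 by DESeq2). The 3 were Sgk1, a kinase that phosphorylates FoxO3 (log2 -2.04, SE 0.38, adjusted p = 0.0162), Mdm2, a ubiquitin ligase (log2 -1.03, adjusted p = 0.0172), and Pik3r1, the regulatory subunit of PI3K (log2 -1.59, adjusted p = 0.0229). Sgk1 fell in 48Q as well (log2 -2.02, adjusted p = 0.0407).

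**Figure D2:**
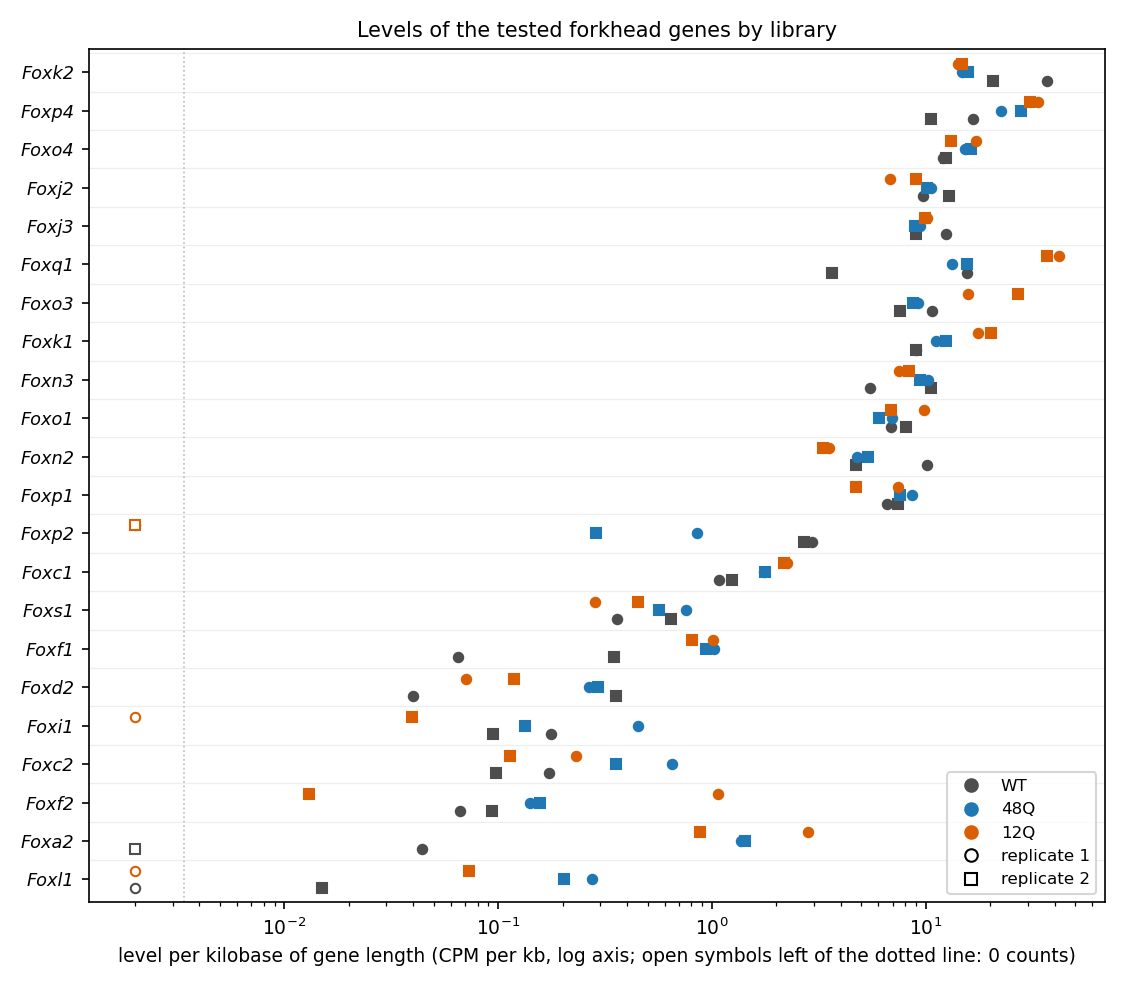
Level of each of the 22 tested members in every library, in CPM per kilobase of gene length on a log axis, ordered by the WT mean; colors are groups, circles replicate 1, squares replicate 2, and open symbols left of the dotted line are libraries with 0 counts (both 12Q libraries coincide there for Foxp2). The upper 12 members lie above 3 CPM per kb in every library, and Foxq1, Foxp4, Foxo3 and Foxk1 lead in 12Q.

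Ranked per kilobase among the 22 tested members, Foxk2 led in WT at 28.8 CPM per kb (SD 11.6, n = 2). The symbols left out by the rule were not ranked, so the leading gene of the whole family is not given for any group. Foxp4 (13.6, SD 4.25), Foxo4 (12.3), Foxj2 (11.3) and Foxj3 (10.7) followed in WT, and these 4 lay within the spread of their neighbours. In 48Q, Foxp4 was first at 25.2 CPM per kb (SD 3.94), ahead of Foxo4 (15.7), Foxk2 (15.2) and Foxq1 (14.4), which did not differ beyond their spread. In 12Q the order was Foxq1 (39.3, SD 3.48), Foxp4 (32.1, SD 1.82), Foxo3 (21.5, SD 7.98) and Foxk1 (18.8, SD 1.87), with Foxo3 and Foxk1 within their spread. Foxk2 stood sixth there, at 14.5 CPM per kb. The summed level of the 41 members, in contrast, was 902 and 884 CPM in 12Q, 735 and 756 CPM in 48Q and 830 and 661 CPM in WT, so that the WT libraries spanned the 48Q ones.

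Foxq1, an epithelial factor known for the hair shaft defect of satin mice, was the member with the highest level per kilobase in 12Q and did not pass the threshold. It was at 117 and 103 CPM in 12Q, 37.0 and 43.8 CPM in 48Q and 43.6 and 10.2 CPM in WT. Both 12Q libraries were more than 2 times the highest of the other 4, while the WT libraries differed 4.27-fold. The log2 difference of 12Q was 2.04 against WT (SE 0.62, adjusted p = 0.0615) and 1.45 against 48Q (SE 0.61, adjusted p = 0.195). The former passed in 5 of 12 alternatives, those without WT replicate 1 (adjusted p = 0.0173) or WT replicate 2 (0.0329) among them, in a range of 0.00706 to 0.142. The latter passed in 3 of 12, without either WT library among them (0.0381 and 0.0385), in a range of 0.0381 to 0.620. Of 16 hair follicle genes, 12 were tested; 5 rose and 1 fell in 12Q, 4 rose in 48Q, and 1, Dlx3, a regulator of hair differentiation, was higher in 12Q than in 48Q (log2 2.24, SE 0.43, adjusted p = 0.0459). The sums of this list were 1252 and 2209 CPM in 12Q, 440 and 655 CPM in 48Q and 987 and 928 CPM in WT. The sums do not stand for each gene, and 6 of the 16 were at 0 in WT. With groups at 0 set to the floor, the median log2 difference of the 12 from WT was 4.04 in 12Q and 5.15 in 48Q. The part of the hair follicle genes in the Foxq1 values was not tested. Exons of Foxq1 overlap another gene, which makes its counts uncertain because the strand setting is not known.

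**Figure D3:**
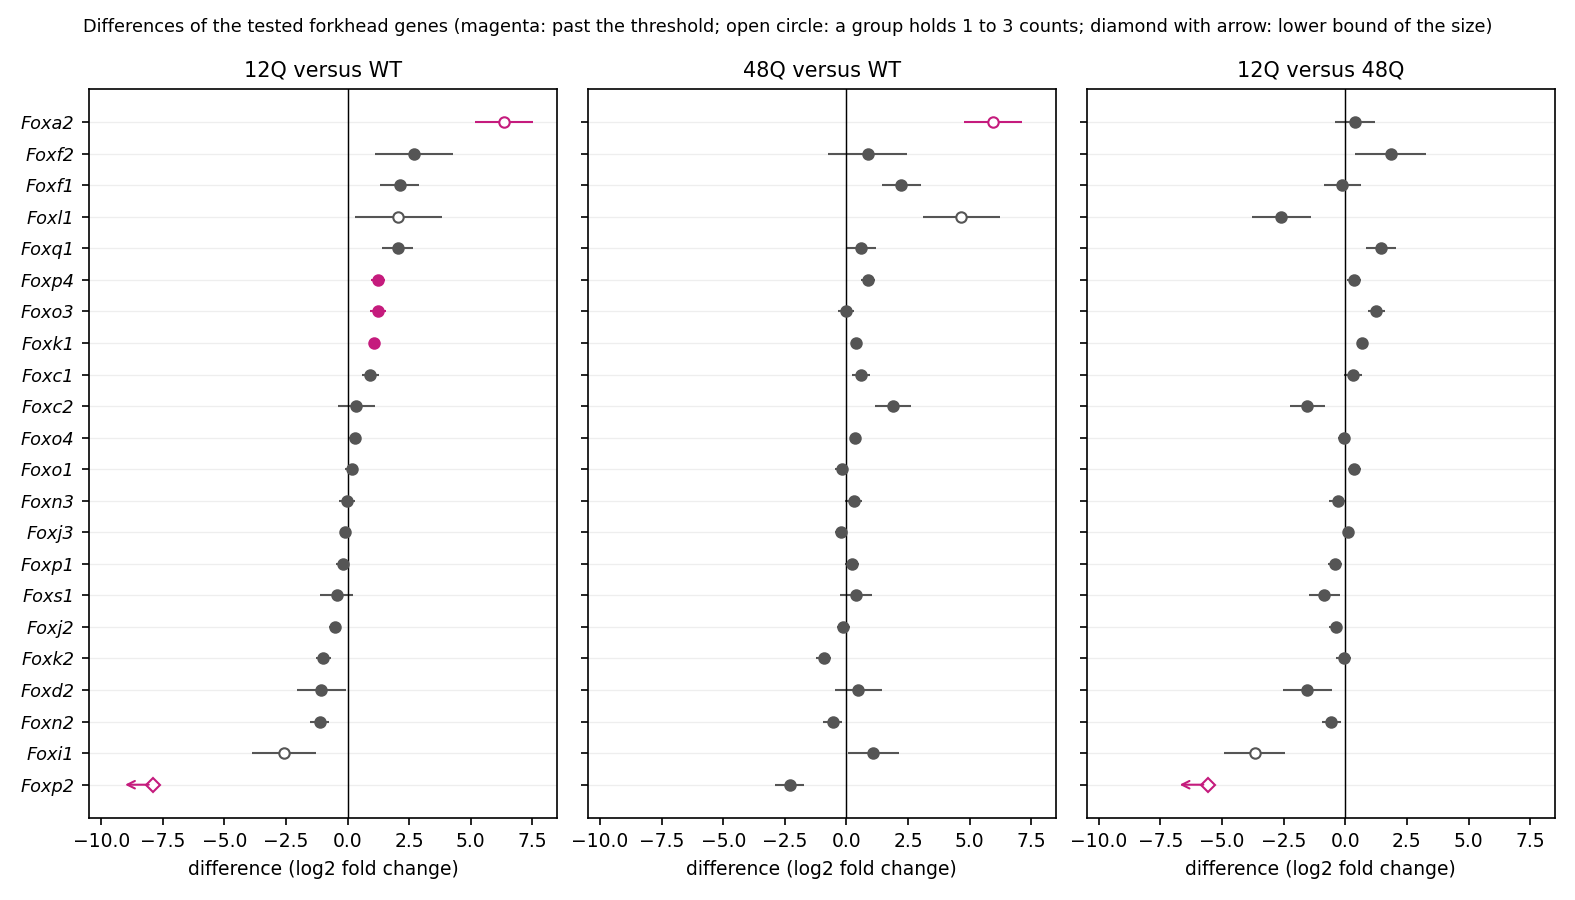
Log2 difference of the 22 tested members in each comparison with its standard error, ordered by 12Q against WT; magenta marks members past the threshold, open circles a group with 1 to 3 counts, and diamonds with arrows the lower bound for Foxp2 where 12Q has no count. Foxa2 is farthest right in both comparisons with WT, and Foxp2 is farthest left in all 3 panels.

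Foxq1 shares a stretch of chromosome 13 with Foxf2 and Foxc1, at gaps of 64.8 kb and 175 kb. Foxc1, a factor of the mesenchyme and vessels, was at 8.92 and 8.67 CPM in 12Q, 6.99 and 7.07 CPM in 48Q and 4.28 and 4.95 CPM in WT. Its groups did not overlap and stood in the order 12Q, 48Q, WT, but its log2 differences of 0.93 in 12Q (adjusted p = 0.114) and 0.61 in 48Q (adjusted p = 0.343) did not pass by edgeR. DESeq2 called Foxc1 higher in 12Q than in WT (adjusted p = 0.0386). Foxf2, which acts in gut and brain mesenchyme, was at 2.52 CPM in 12Q replicate 1 and 0.0309 CPM in 12Q replicate 2, an 81.3-fold gap between libraries of 1 group. In the other 4 libraries it was at 0.156 to 0.371 CPM. No direction can be read for Foxf2, whose log2 difference of 12Q against WT was 2.71 with both libraries and -2.41 without replicate 1.

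On chromosome 8, Foxf1, Foxc2 and Foxl1 lie 28.0 kb and 8.79 kb apart. Foxf1, a Hedgehog-responsive factor of the mesenchyme beneath epithelia, was at 2.44 and 1.95 CPM in 12Q, 2.47 and 2.28 CPM in 48Q and 0.156 and 0.840 CPM in WT. All tumor libraries lay above both WT libraries, with log2 differences of 2.11 (adjusted p = 0.106) and 2.22 (adjusted p = 0.154) that did not pass. Foxc2, a factor of lymphatic vessels, was at 0.629 and 0.309 CPM in 12Q, 1.78 and 0.970 CPM in 48Q and 0.469 and 0.265 CPM in WT. Foxl1, a marker of the fibroblasts that send Wnt signals to intestinal crypts, was at 0 and 0.217 CPM in 12Q, 0.813 and 0.599 CPM in 48Q and 0 and 0.0442 CPM in WT. Foxc2 and Foxl1 were highest in both 48Q libraries, where Foxl1 had 48 counts against 7 in 12Q and 1 in WT, and neither passed in any comparison.

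**Figure D4:**
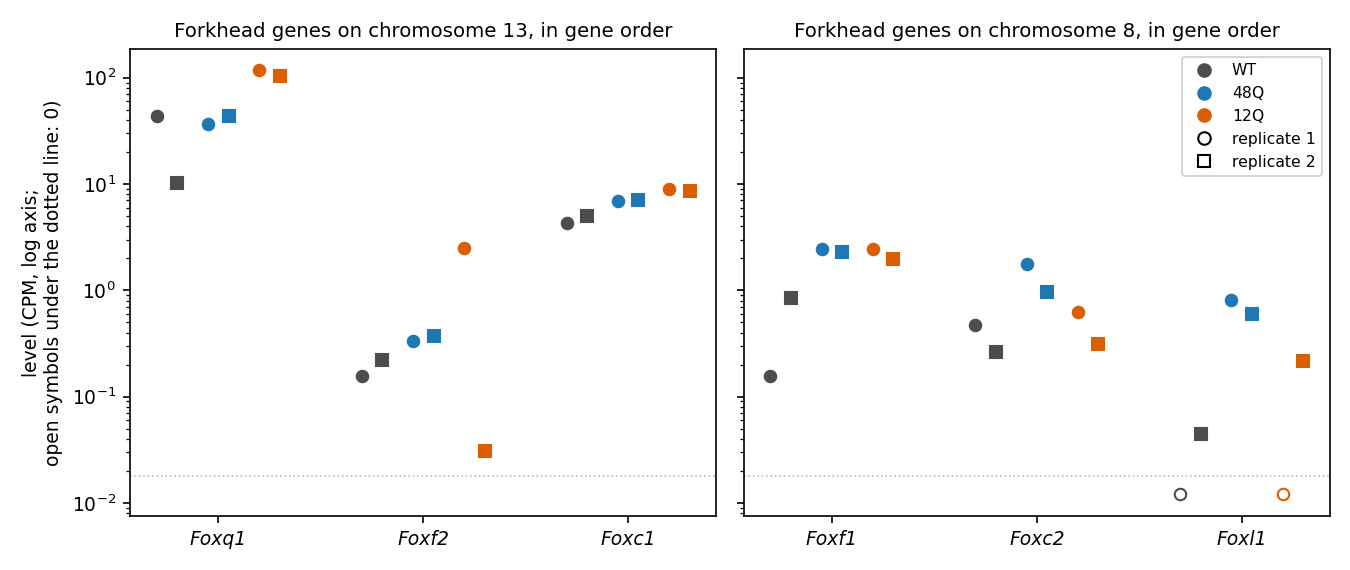
Levels in CPM on a log axis of the forkhead genes that neighbour each other on chromosome 13 (left) and chromosome 8 (right), by library; colors are groups, circles replicate 1, squares replicate 2, and open symbols under the dotted line are libraries with 0 counts. The 12Q libraries are highest for Foxq1 and Foxc1, far apart for Foxf2, and below the 48Q libraries for Foxc2 and Foxl1.

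The stromal lists were read beside these genes. Of 14 Hedgehog pathway genes, 1 rose in 12Q against WT, the ligand gene Ihh (log2 3.67, SE 0.57, adjusted p = 0.0102), and 5 fell, among them the receptor gene Gas1 (log2 -4.02, SE 0.66, adjusted p = 0.0115). In 48Q, Ihh rose (log2 3.17, adjusted p = 0.0362), and Gas1 was lower in 12Q than in 48Q (log2 -3.20, adjusted p = 0.0497). Of 12 fibroblast genes, 1 rose and 5 fell in 12Q, 1 rose in 48Q, and 6 were lower in 12Q than in 48Q, with sums of 333 and 651 CPM in 12Q, 1524 and 1346 CPM in 48Q and 821 and 971 CPM in WT. The list medians between the tumors were -2.35 for fibroblast and -1.80 for Hedgehog genes. Beside them stood -0.11 for Foxf1, 0.32 for Foxc1, -1.55 for Foxc2 and -2.60 for Foxl1, none of which passed. The part of the stroma in these values was not tested. Foxs1, a marker of vessel-wall cells, was at 0.370 to 0.588 CPM in 12Q, 0.741 to 0.994 CPM in 48Q and 0.469 to 0.840 CPM in WT, and did not pass. Of 8 pericyte genes, 1 rose in 12Q by edgeR, and DESeq2 called 3 higher in 48Q, where edgeR had 0 (3 at an unadjusted p under 0.05). Of 10 endothelial genes, 5 rose and 1 fell in 12Q, and 1 rose and 1 fell in 48Q.

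Foxj1, the switch for motile cilia, was not tested, with 1 to 11 counts in a library. Of 19 multiciliated cell genes, 11 were tested; 2 fell in 12Q against WT, 1 rose in 48Q, and 1 was lower in 12Q than in 48Q, while Gmnc and Spag16, 2 genes of this list, were at 0 in all groups. Foxi1, which specifies ionocytes, had 0 and 3 counts in 12Q, where 3 counts are 0.111 and 0.0928 CPM, against 1.05 and 0.314 CPM in 48Q and 0.417 and 0.221 CPM in WT. Both 12Q libraries were the lowest of the 6, but the difference from 48Q did not pass (adjusted p = 0.131). Of 9 ionocyte genes, 4 were tested, of which 2 rose in 12Q and 1 in 48Q; the one shared by both was Atp6v0d2, a proton pump subunit found also in other cells. Foxp3 counts were 0 and 3 for 12Q, 7 and 15 for 48Q, but 0 and 1 for WT, where the sums of 12 T cell genes were 30.6 and 41.5 CPM, 55.1 and 53.1 CPM, and 28.8 and 52.8 CPM. Of these 12, 11 were tested, and 1 of them rose in 12Q.

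Of the remaining tested members, Foxj2 was at 33.9 to 64.3 CPM over the 6 libraries, Foxj3 at 59.5 to 82.6 CPM and Foxn3, a checkpoint repressor, at 21.6 to 41.7 CPM, and none passed in any comparison. Foxn2 was at 25.6 and 24.0 CPM in 12Q, 34.6 and 39.2 CPM in 48Q and 74.1 and 34.3 CPM in WT. Its 12Q libraries were the lowest of the 6, with a log2 difference from WT of -1.13 (SE 0.38, adjusted p = 0.0796) that DESeq2 called. Foxd2 was under 1 CPM in every library and differed 8.90-fold between the WT libraries.

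Among the untested members, Foxl2, the ovarian granulosa and eyelid factor, had counts of 0 and 3 for 12Q, 13 and 7 for 48Q and 0 in both WT libraries. Foxa3, a liver and gut relative of Foxa2, had counts of 5 and 7 for 12Q, 16 and 8 for 48Q and 1 in each WT library. Foxd3, a neural crest factor, had 0 counts in both 12Q libraries, 7 and 1 in 48Q and 2 and 5 in WT. Foxd1, Foxd4, Foxe3, Foxh1 and Foxr2 had 0 to 6 counts in a library. Among the members at 0 in every library were Foxb1, Foxb2, Foxe1, Foxi2, Foxi3, Foxn4 and Foxr1. Members with a count numbered 22 and 28 in the 12Q libraries, 33 and 29 in 48Q and 26 in each WT library, so that the 48Q libraries showed the most. Differences among the untested members were not tested.

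Ctnnb1, the gene targeted in the tumors, was at 958 and 1035 CPM in 12Q, 1082 and 957 CPM in 48Q and 669 and 569 CPM in WT. Its log2 differences were 0.69 (adjusted p = 0.150) and 0.72 (adjusted p = 0.208). Counts per gene sum all exons and so do not check the state of exon 3. Of 13 genes that work with or answer β-catenin, 4 rose in 12Q and 4 in 48Q, among them Notum (log2 4.55 and 5.74, adjusted p = 0.00572 and 0.0108), a secreted Wnt inhibitor. Of 8 prostate epithelium genes 1 was lower in 12Q than in WT and than in 48Q. Of 6 seminal vesicle genes, 1 rose in 12Q and 2 in 48Q, and 3 were lower in 12Q than in 48Q; their sums were 1.55 to 2.41 CPM in 12Q, 26.0 to 49.2 CPM in 48Q and 0.730 to 0.884 CPM in WT. Of the 10 housekeeping genes, 1 rose in 12Q (Actb, log2 1.31, adjusted p = 0.0460) and 1 fell in 48Q. Over the 16 lists, a direction with 0 calls by edgeR held at most 4 genes at an unadjusted p under 0.05 and at most 3 by DESeq2.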

How the data were processed

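The authors deposited 1 table of whole-number read counts per gene for the 6 libraries, with the length of each gene in kilobases beside them. TopHat2 2.0.14 (genome mm10) and HTSeq 0.6.0 made these counts, per the submitters' processing notes, which as used here give no annotation, strand setting or rule for multiply mapped reads. Exons of 12 members, 6 of them tested (Foxf1, Foxf2, Foxj2, Foxo1, Foxp1 and Foxq1), overlap another GENCODE M21 gene, so their counts are uncertain. Groups and replicate numbers came from the labels. Genes were kept by filterByExpr of edgeR 4.0.16 (minimum count 10, minimum total 15), scaled by TMM and tested with the quasi-likelihood F test in 1 fit of the 3 groups (R 4.3.3, 3 residual degrees of freedom, Benjamini-Hochberg adjustment over 15050 genes, threshold 0.05). The standard error is the log2 difference divided by the root of F. Levels per kilobase use the deposited lengths. A group at 0 was set to a floor of 3 counts per library; ratios with 1 to 3 counts have exact 95% binomial intervals. The fit was tested on simulated counts. Alternatives were other scalings, no filter, DESeq2 1.42.0, only the 2 groups compared, a replicate block, and each library left out. Members past the threshold are given in every library, other tested members by library or range, untested ones by counts, and at most 3 called genes of a list are named. The members and the 16 gene lists were chosen with earlier results of these data known. The gene that carries the polyglutamine tract and a few other items are not reported here.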

Additional observations from a re-analysis of the deposited data

Results flagged for a closer look

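Foxp2 differed between the 2 tumor groups by a test of the difference itself (edgeR, adjusted p = 0.0246): it had 0 counts in both 12Q libraries, and 244 and 87 counts in the 48Q libraries, so that 2 of 2 libraries lay below 2 of 2. It did not pass in 48Q against WT (adjusted p = 0.0923).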

How the results depend on the processing

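For 12Q against WT, the 4 members called higher became 7 with library totals (Foxc1, Foxo4 and Foxq1 added), 6 by DESeq2 and 1, Foxa2, when only the 2 groups were fitted, where 17 members were tested; without 1 library they ranged from 1 (without either 48Q library) to 4. The 1 called lower became 3 by DESeq2 (Foxk2 and Foxn2 added) and ranged from 1 to 3 (without WT replicate 2). For 48Q against WT, the 1 called higher became 4 with library totals, and ranged from 0 to 1 without 1 library, as did the 0 called lower, with 1 by DESeq2. Between the tumors, the 0 called higher became 2 by DESeq2 (Foxk1 and Foxo3) and 1 (Foxq1) when only the 2 groups were fitted, and ranged from 0 to 1, as did the 1 called lower. With DESeq2 size factors or no filter no count changed. Of all calls, 50.1% were higher in 12Q against WT, 76.3% in 48Q and 24.2% between the tumors, and 76.0%, 95.9% and 14.1% with library totals.

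With the replicate block, 4 members were higher (Foxq1 in place of Foxo3, adjusted p = 0.0415 and 0.0585) and 1 lower in 12Q, 1 higher in 48Q, and 1 lower between the tumors. Same-numbered libraries showed no pairing: their deviations correlated at 0.13 (12Q and WT), -0.10 (48Q and WT) and 0.03 (12Q and 48Q).

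Uncalled log2 differences changed sign as follows, and the cause was not tested. With library totals, in 12Q they were 0.42 for Foxj3, 0.45 for Foxn3, 0.28 for Foxp1 and 0.043 for Foxs1; in 48Q 0.55 for Foxj2, 0.48 for Foxj3, 0.17 for Foxn2, 0.49 for Foxo1 and 0.68 for Foxo3; between the tumors -0.059 for Foxj3. The replicate block gave 0.020 for Foxn3 in 12Q. Without 1 library, the 12Q values ranged from -0.18 to 0.81 for Foxc2, -1.88 to 1.22 for Foxd2, -2.41 to 3.70 for Foxf2, -0.31 to 0.15 for Foxj3, -2.63 to 4.79 for Foxl1, -0.42 to 0.52 for Foxn3, -0.061 to 0.40 for Foxo1, -0.52 to 0.10 for Foxp1 and -0.82 to 0.031 for Foxs1. The 48Q values ranged from -0.35 to 2.75 for Foxd2, -0.020 to 1.71 for Foxi1, -0.32 to 0.078 for Foxj2, -0.44 to 0.019 for Foxj3, -1.02 to 0.10 for Foxn2, -0.11 to 0.83 for Foxn3, -0.26 to 0.24 for Foxo3 and -0.12 to 1.98 for Foxq1. Between the tumors they ranged from -0.64 to 1.03 for Foxa2, -0.25 to 0.051 for Foxf1, -3.31 to 2.84 for Foxf2, -0.24 to 0.13 for Foxo4 and -0.11 to 0.061 for Ctnnb1. Detection limits by level were not computed, and 2 libraries a group limit the precision of each value.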
